A study of Mus musculus with 14 samples.

Results

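The liver of C57BL6 mice was represented by 2 of 14 libraries of transcript signature tags, 1 from a female and 1 from a male, chosen by the titles that name the liver. They were set against the 12 libraries of the other 6 tissues, which were bone marrow, hippocampus, pancreas, parotid, spinal cord and stomach, again with 1 female and 1 male library each. All 14 libraries came from total RNA supplied by the National Human Genome Research Institute, and no treatment or mutant genotype was named for any of them. The ages of the mice, the number of animals behind a library and any pooling were not given in the sources used here. The female liver title names the right lobe and the male title the left lobe, while both library codes end in LL, so lobe and sex cannot be told apart. The labels state no hypothesis. The comparison asks which transcripts were more or less abundant in liver than in the rest of the collection.

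In each library mRNA was copied into cDNA, the cDNA was cut with DpnII, which cuts at GATC, and the sequence next to the cut nearest the 3′ end was captured with MmeI and counted. By this design each transcript is counted at 1 site, so its count does not scale with its length. A transcript without a DpnII site gives no tag, and a low level below can therefore understate a gene. Levels of genes sum all tags assigned to them. The female liver library held 2466184 counts and the male 3794733, of which 2015243 and 3307165 were assigned to the sense strand of a gene. The 12 other libraries held between 2194028 and 3834568 counts. Levels are given as CPM, counts per 1e6 counts assigned to genes. A count of 0 in the female liver library allows up to 1.49 CPM and in the male up to 0.907 CPM, at 3 counts per library and for counting error only. The female and male stomach libraries stood apart from each other: 49.8% of their 4255 genes with a mean of at least 20 CPM and counts in both differed by at least 2-fold. The same share was 6.27% of 3701 genes between the liver libraries and 0.254% to 2.84% in the other 5 tissues.

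Hepatocytes, the parenchymal cells of the liver, secrete most plasma proteins, among them albumin, clotting factors, complement and the apolipoproteins that carry lipid. They also burn and build fat, make glucose and urea, turn cholesterol into bile acids and oxidise and conjugate foreign compounds. In rodents a set of liver transcripts differs between the sexes under the control of the growth hormone rhythm, with the major urinary proteins, pheromone carriers excreted in urine, as the classic case.

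The tags that identify the marker genes of the tissue, and the tags of the major urinary protein family whose members are near copies of each other, are shown because all levels below rest on such strings. They are written 5′ to 3′ as 20 bases, with the DpnII site in capitals.
Alb: GATCcctggtggaaaggcgg
Apoa1: GATCgacaaggccagcgaga
Serpinc1: GATCgttgctggaggcaggg
Mup1: GATCtgcattccatcctgtc
Mup20: GATCtgctttccatcgtgtc
Mup4: GATCtgctttccatcctgtc
Mup3: GATCtgctctccacctgtct
Mup5: GATCacagaatttatactgg

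Counted from 1 at the 5′ end of the tag, the Mup1 and Mup4 tags differ by A8T and the Mup20 and Mup4 tags by G16C. Mup1 and Mup20 differ at both places, A8T and C16G. A single misread base can therefore move a count from one of these genes to another, and the lower members are uncertain next to Mup1.

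The markers of the liver label were present in both libraries. Alb (UniGene cluster Mm.16773), the main plasma protein, stood at 46078 CPM in the female and 30610.5 CPM in the male library, against a lowest, median and highest level of 28.9, 177 and 776 CPM in the 12 others. Both liver libraries lay far above all others, and the fold over the mean of the 6 tissues was 7.61 ± 0.40 on the log2 scale (standard error; edgeR adjusted p = 1.3e-11). The level outside liver came almost entirely from another tag, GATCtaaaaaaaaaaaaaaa, a run of A after the site, which held 98.1% of the Alb counts of the 12 others and 0.306% of those of liver. The albumin tag shown above was at 0 in 9 of the 12 other libraries and reached at most 40.1 CPM. Serpinc1 (Mm.260770), the clotting inhibitor antithrombin, stood at 2631 and 1832 CPM against 0.723, 4.95 and 16 CPM (log2 fold 8.93 ± 0.25, adjusted p = 1.3e-14). Apoa1 (Mm.26743), the main protein of high density lipoprotein, stood at 12977 and 19248 CPM, and its next tissue was stomach at 1825 and 1644 CPM. Defining transcripts of pancreas, parotid and stomach were near 0 in liver. The pancreas acinar list summed to 13.9 and 7.26 CPM against 349858 CPM in male pancreas, and the parotid list to 0 and 0.605 CPM against 542964 in female parotid. The gastric list summed to 4.47 and 3.02 CPM against 241284 in male stomach, although 1 of its 5 genes was called higher in the test below. The erythroid list was not near 0, at 798 and 962 CPM in liver against 366248 CPM in female bone marrow.

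**Figure D1:**
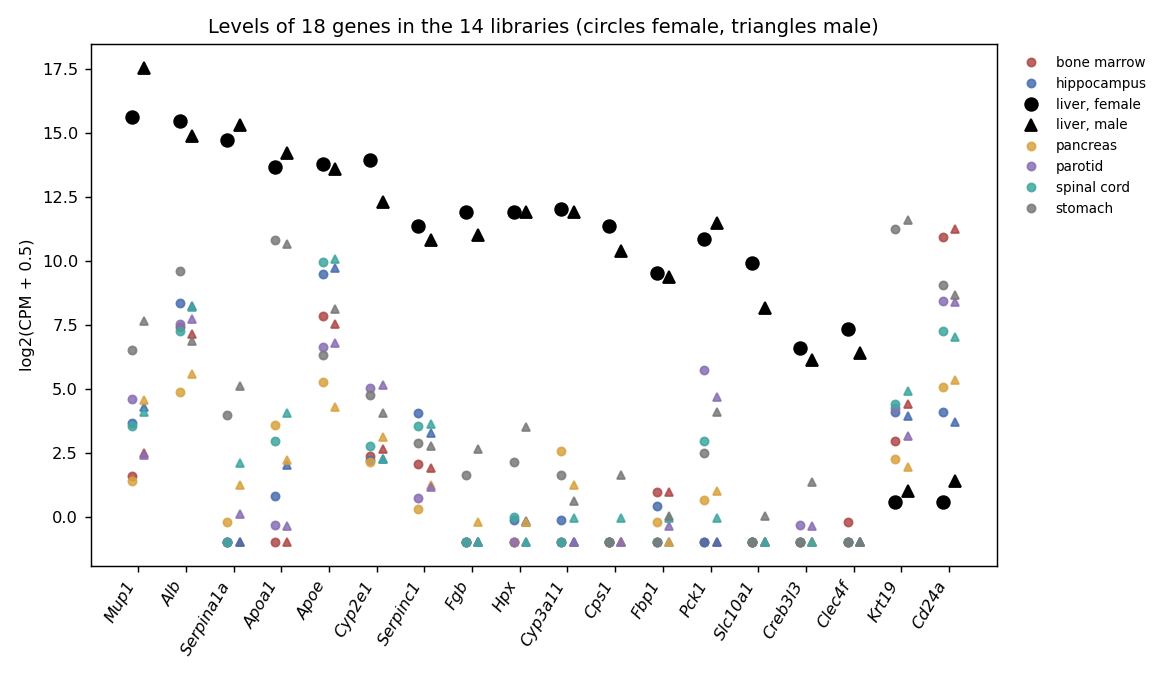
Levels of 18 genes as log2(CPM + 0.5) in the 14 libraries, with liver in black and the other tissues in colour, circles for female and triangles for male libraries. The liver points of genes such as Fgb and Creb3l3 lie above all others, while those of Krt19 and Cd24a lie below them.

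Of 14682 tested genes, 2709 were called higher in liver than in the mean of the other 6 tissues, which is 18.5%, and 1480 were called lower, which is 10.1% (edgeR's quasi-likelihood test, Benjamini-Hochberg adjusted p under 0.05 and at least 2-fold). The median log2 fold of all tested genes was -0.16, or -0.29 with tissues at 0 set to 3 counts. Against each tissue singly, 916 genes (6.24%) were higher in liver than in all 6, and 109 (0.742%) were lower than in all 6. The lower count rested on both liver libraries, since 813 genes were called lower without the female and 713 without the male one. It also moved with the test: 2337 genes were lower with DESeq2 and 4181 with limma voom, while a fit of liver against the 12 others as 1 group called 863 higher and 78 lower. The contrast of mean log levels cannot call a gene lower when 1 of the other tissues has no count in either library. Of 4582 tested genes with such a tissue 0 were called lower and 813 higher, and 2485 of the 2488 with a fitted log2 fold of -1 or less had an adjusted p over 0.99. With limma voom 2521 of these 4582 genes were lower. Over the 10100 genes with counts in every tissue, 1480 (14.7%) were lower with edgeR and 1660 (16.4%) with limma voom. Counts of lower genes below therefore cover only genes with counts in every tissue, and a gene with a tissue at 0 that was not called lower may still be lower. Counts of higher genes have a limit too. The filter on low counts can be passed through the 2 liver libraries alone, and such a gene can hardly be called other than higher. The shares of lists called higher below describe the lists and are no test of them. Without both stomach libraries 2975 genes were called higher and 1840 lower. The fold in the test rests on TMM scaling, whose factors ran from 0.147 in male pancreas to 2.49 in female spinal cord, so that a ratio of CPM values and the tested fold can differ widely. A fold fitted against a tissue without counts is set by the prior count. For genes with such a tissue, levels or the ratio of the mean liver CPM to the mean of the next highest tissue are given.

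Liver put much of its transcript pool into few genes. The most abundant gene took 5.12% of the gene counts of the female and 19.3% of those of the male library, the 10 most abundant 26.6% and 39.3%, and the 100 most abundant 52.5% and 63.4%. Genes higher in liver than in each of the other tissues made up 54.6% of the female and 63.0% of the male gene counts, from 916 genes. The most abundant of the genes that lay above all 12 others in both liver libraries were Mup1, Alb, Serpina1a, Apoa1, Apoe, Cyp2e1, Mup3, Mup20 and mt-Nd2. In all, 1214 tested genes (8.27%) lay above all 12 others in both libraries and 140 (0.954%) below.

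The major urinary proteins led the male library. Mup1 stood at 51202 CPM in female and 192881 CPM in male liver, against 2.17, 14.48 and 203 CPM as the lowest, median and highest of the 12 others (log2 fold 12.63 ± 0.57, adjusted p = 1.18e-12). Mup3 stood at 5656 and 12323 CPM and was at 0 in 8 of 12 other libraries, with stomach next at 5.2 and 20.8 CPM. Mup20, known as darcin, showed the widest gap between the liver libraries, with 387 CPM in the female and 16898 CPM in the male. Mup5 was the member with a level elsewhere: it stood at 2265 and 11892 CPM in liver and at 309 and 475 CPM in parotid. Its printed tag reached only 5.63 CPM outside liver, so the parotid counts came from other tags of the cluster. Mup4 was low, at 10.4 and 28.1 CPM. All 5 clusters were called higher and 4 of them above each tissue. The 7 clusters whose symbol begins with Mup took 6.05% of female and 23.8% of male liver gene counts.

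The clotting system was called higher throughout: 24 of 24 tested genes of coagulation and fibrinolysis passed, against 18.5% of all genes, and 23 lay above each of the 6 tissues. Of the 24, 19 had a tissue at 0, as had 20 of 29 plasma carrier, 27 of 39 cytochrome P450 and 20 of 27 bile acid genes below. The median log2 fold was 10.60, or 8.45 with the floor of 3 counts. Fibrinogen, the clot-forming protein, is built from Fga, Fgb and Fgg. Fgb stood at 3838 and 2094 CPM in female and male liver, Fga at 2341 and 1740.5 CPM and Fgg at 2399.7 and 1742 CPM. The highest level of any fibrinogen chain in another library was 5.72 CPM, for Fgb in male stomach, and Fga and Fgb were at 0 in 9 of the 12. Prothrombin, F2, cleaved to thrombin in clotting, stood at 2481 and 1497 CPM against at most 4.3 CPM elsewhere. Vitronectin, Vtn, an adhesion protein of plasma, stood at 2081 and 1713 CPM with spinal cord next at 78.6 and 69.3 CPM (log2 fold 7.89 ± 0.30, adjusted p = 1.53e-13). Plasminogen, Plg, the precursor of the clot-dissolving plasmin, stood at 1115 and 627 CPM, and its mean was 1803 times that of spinal cord, the next tissue. The smallest fold of the list was that of Pros1, a cofactor of protein C, at 66.5 and 60.5 CPM against 1.81, 17.9 and 41.2 CPM (log2 fold 2.04 ± 0.27, adjusted p = 6.14e-06). The list summed to 22683 and 15307 CPM in liver, and to between 14.46 and 166 CPM in the others.

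Complement, the cascade of plasma proteins that marks and lyses microbes, gave 22 of 22 tested genes higher, 20 of them above each tissue, with a median log2 fold of 8.37 (7.42 with the floor). C3, the central component, stood at 2179 and 1311 CPM, above bone marrow at 132 and 145 CPM (log2 fold 6.13 ± 0.26, adjusted p = 5.03e-13). C8g, a chain of the membrane attack complex, stood at 1381 and 776 CPM and did not pass 4.33 CPM elsewhere. Factor B, Cfb, of the alternative pathway stood at 681 and 569 CPM (log2 fold 7.82 ± 0.28, adjusted p = 8.31e-14). The regulator Cfi stood at 575 and 412 CPM, with stomach next. The members that were not above each tissue were C4b, at 27.8 CPM in both liver libraries and up to 59.8 CPM in male stomach, and properdin, Cfp. Properdin stood at 16.9 and 14.2 CPM in liver and higher in bone marrow, at 48.4 and 65.7 CPM. Mbl1, a lectin that starts the cascade on sugars, was at 0 in all 12 other libraries. It stood at 107 and 133 CPM in liver, at least 1241-fold higher than the 12 others at 3 counts over the group.

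Among the apolipoproteins and the proteins that handle lipoproteins, 19 of 20 were called higher and 18 lay above each tissue, with a median log2 fold of 8.13 (7.38 with the floor). Apoe, which clears remnants through the liver, was the member with the highest level outside it: 14227 and 12433 CPM in liver against 994 and 1082 CPM in spinal cord (log2 fold 5.93 ± 0.29, adjusted p = 3.34e-12). Apoc3, an inhibitor of lipoprotein breakdown, stood at 6016 and 2928 CPM and nowhere else above 16.6 CPM. Apob, the scaffold of very low density lipoprotein, stood at 1794 and 1166 CPM, with stomach next at 28.6 and 9.36 CPM. Apoh stood at 3108 and 1538 CPM and Apoc4 at 1329 and 1167 CPM. The mean of Apoh was 1031 times, and that of Apoc4 1599 times, that of stomach, which was next for both. The member that did not pass was Pltp, the phospholipid transfer protein, at 42.2 and 27.8 CPM against up to 83.7 CPM in spinal cord (log2 fold 0.95 ± 0.31, adjusted p = 0.0248, under 2-fold).

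Plasma carriers, acute phase proteins and hormones gave 29 of 29 tested genes higher and 27 above each tissue, with a median log2 fold of 9.71 (8.09 with the floor). Ahsg, the mineral-binding fetuin A, stood at 6742 and 4117 CPM and was at 0 in 9 of the 12 others. The vitamin D carrier Gc stood at 5629 and 4138 CPM against at most 9.97 CPM, and the heme carrier Hpx at 3847 and 3831 CPM against at most 10.9 CPM. Transferrin, Trf, and the selenium carrier Selenop were also found in the nervous system and stomach. Trf stood at 6374 and 5584 CPM in liver and 1008 and 777 CPM in spinal cord (log2 fold 6.605 ± 0.24, adjusted p = 1.06e-13). Selenop stood at 5054 and 2752 CPM in liver and 443 and 532 CPM in stomach (log2 fold 4.55 ± 0.22, adjusted p = 3.18e-12). The acute phase protein Saa4, at 226 and 316 CPM, and the corticosteroid carrier Serpina6, at 205 and 71.7 CPM, were at 0 in all 12 other libraries. Against 3 counts over those 12 they were at least 2803-fold and 1433-fold higher.

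The serpins, a family of protease inhibitors, divided: 14 of 31 tested members were called higher and 1 lower, against 18.5% and 10.1% of all genes. With limma voom 9 were lower, and 18 members had a tissue at 0. Of the 38 found, 13 were at 0 in both liver libraries. Serpina1a, antitrypsin, stood at 26876 and 40435 CPM, and its mean was 1359.8 times that of stomach, the next tissue. Serpina3k stood at 3545 and 8685 CPM against at most 8.84 CPM elsewhere. Serpina3n was closer to another tissue, with 965 and 584 CPM in liver and 213 and 258 CPM in spinal cord (log2 fold 4.54 ± 0.52, adjusted p = 9.97e-07). Serpine2, an inhibitor of thrombin and plasminogen activators, was called lower, at 1.98 and 10.9 CPM in liver against 1.81, 51 and 426 CPM (log2 fold -2.55 ± 0.60, adjusted p = 0.00281). The Serpina and Serpina3 genes are clusters of near copies, and counts may be divided among them.

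The cytochrome P450 enzymes, which oxidise drugs, steroids and fatty acids, gave 38 of 39 tested genes higher and 32 above each tissue, with a median log2 fold of 8.99 (7.03 with the floor). A further 6 of the 45 found did not pass the filter on low counts. Cyp2e1, which oxidises ethanol, stood at 15789.7 and 5102 CPM against 3.98, 6.11 and 34.7 CPM (log2 fold 9.97 ± 0.32, adjusted p = 2.89e-14). Cyp3a11, a main drug-oxidising enzyme, stood at 4247 and 3835 CPM and at most 5.42 CPM elsewhere. Cyp2c29 stood at 2103 and 1462 CPM, Cyp2c50 at 1688 and 889 CPM and Cyp3a25 at 1316 and 813 CPM, each under 3 CPM in every other library. Cyp4a14 and Cyp4a10, fatty acid hydroxylases, both had female levels above male ones: Cyp4a14 stood at 1518 and 504 CPM and Cyp4a10 at 1209.8 and 575 CPM. The member that did not pass was Cyp4f18, at 0.992 and 0 CPM in liver and 67 and 66.8 CPM in bone marrow.

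Conjugating and other detoxifying enzymes gave 44 of 48 tested genes higher, 35 above each tissue and 1 lower, with a median log2 fold of 5.84 (5.03 with the floor). The carboxylesterase Ces1c stood at 5477 and 2369 CPM against at most 10.8 CPM. Alcohol dehydrogenase, Adh1, stood at 3635 and 1809 CPM with stomach next at 94.5 and 68.1 CPM (log2 fold 7.999 ± 0.23, adjusted p = 1.3e-14). The glutathione transferases were found more widely. Gsta3 stood at 2619.5 and 1971 CPM with up to 90.6 CPM in stomach, and Gstm1 at 1419 and 1441 CPM with up to 361 CPM in stomach. Gstm5 was lower in liver, at 6.95 and 10.3 CPM against 159 and 179 CPM in hippocampus (log2 fold -1.89 ± 0.47, adjusted p = 0.00404). Gsto1, which did not pass the 2-fold limit (log2 fold 0.78 ± 0.27, adjusted p = 0.0366), stood at 79.9 and 68.9 CPM in liver and at 699.9 and 1049 CPM in stomach. The glucuronosyltransferases Ugt3a2 and Ugt2b1 and the transporter Slc22a30 were at 0 in all 12 other libraries. Ugt3a2 stood at 530.0 and 349 CPM, Ugt2b1 at 84.9 and 229.5 CPM and Slc22a30 at 203 and 242 CPM.

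**Figure D2:**
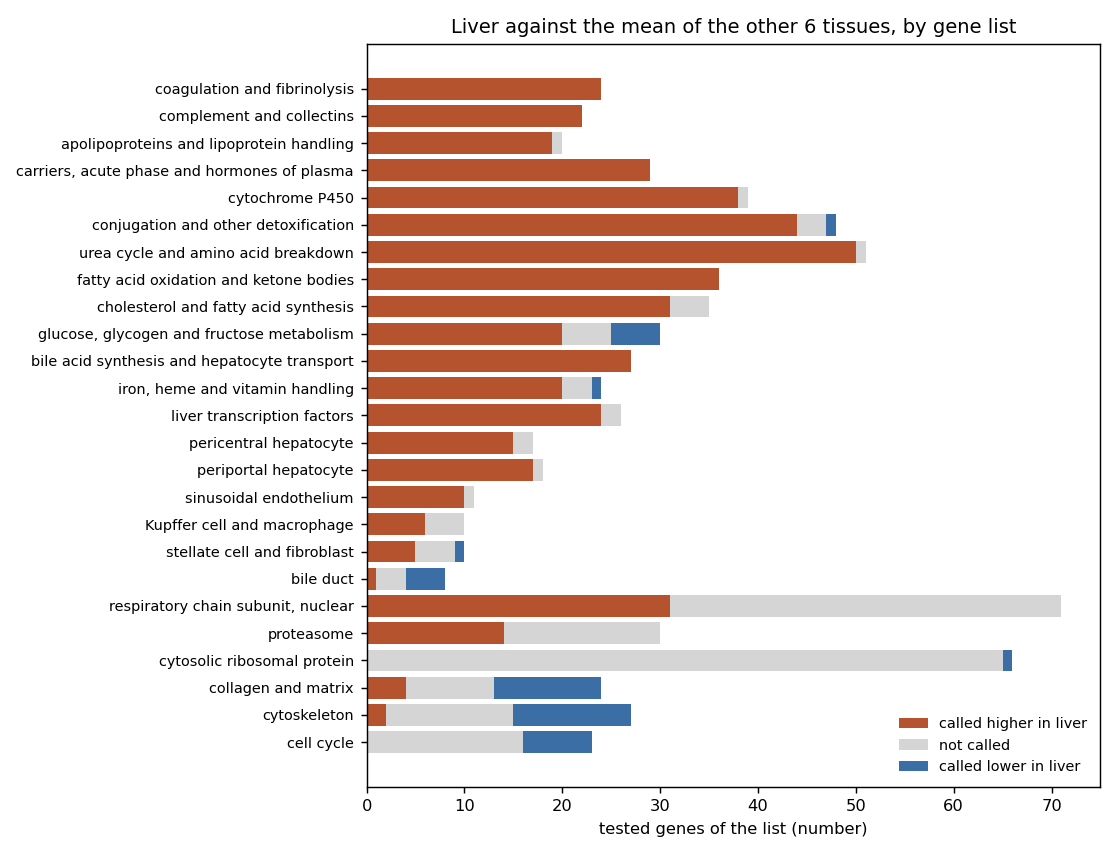
Number of tested genes called higher in liver, not called and called lower for 25 gene lists, as stacked horizontal bars with the gene count on the axis. Bars of the plasma protein and metabolic lists are almost filled by genes called higher, such as 24 of 24 for coagulation, while the cell cycle list holds 7 of 23 called lower and 0 higher.

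Fatty acid oxidation and ketone body genes gave 36 of 36 tested genes higher and 27 above each tissue, with smaller folds than the plasma proteins: the median was 3.42 (3.36 with the floor). Catalase, Cat, which breaks down hydrogen peroxide, stood at 1072 and 965 CPM and in bone marrow at 149 and 106 CPM. The mitochondrial thiolase Acaa2 stood at 639 and 711 CPM (log2 fold 4.65 ± 0.22, adjusted p = 2.27e-12), and the electron carrier Etfb at 674 and 459 CPM (log2 fold 2.35 ± 0.23, adjusted p = 9.81e-08). Fabp1, the liver fatty acid binding protein, had only 3.47 and 0.605 CPM in its cluster and 0 in all others, and was not tested.

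Synthesis of cholesterol and fatty acids gave 31 of 35 tested genes higher, and 18 above each tissue, with a median log2 fold of 2.79. Spinal cord, rich in myelin, held the highest sum of the list outside liver, 3820.4 CPM in its male library, below the 7993 CPM of female and the 4741 CPM of male liver. Scd1, a fatty acid desaturase, stood at 1873 and 849 CPM and in spinal cord at 391.7 and 489 CPM (log2 fold 2.96 ± 0.25, adjusted p = 1.56e-08). Hmgcs1, of cholesterol synthesis, was called higher with 592 and 292 CPM, although spinal cord reached 460.1 and 532 CPM and the CPM ranges overlapped (log2 fold 3.51 ± 0.24, adjusted p = 4.53e-10). Dgat2, which makes triglyceride, stood at 528 and 252 CPM (log2 fold 4.35 ± 0.26, adjusted p = 7.54e-11). The members that did not pass were Fasn, Acly, Srebf2 and Dgat1. Fatty acid synthase, Fasn, stood at 324 and 90.7 CPM against 8.67, 195 and 547 CPM (log2 fold 0.47 ± 0.29, adjusted p = 0.261), and Acly, which makes its substrate, at 194 and 78.9 CPM (log2 fold 0.83 ± 0.33, adjusted p = 0.0619).

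The urea cycle and amino acid breakdown gave 50 of 51 tested genes higher and 41 above each tissue, with a median log2 fold of 7.25 (6.37 with the floor). Bhmt, which returns a methyl group to homocysteine, stood at 5257 and 2659.7 CPM against at most 7.8 CPM. Tat, which starts tyrosine breakdown, stood at 2589 and 3687 CPM, and Hpd, later in the same pathway, at 2225 and 1182 CPM, with at most 3.03 and 0.754 CPM elsewhere. Cps1, the entry step of the urea cycle, stood at 2672 and 1331 CPM and was at 0 in 10 of 12 others. Mat1a, which makes the methyl donor S-adenosylmethionine, stood at 3161 and 1328 CPM. Arg1, the last enzyme of the urea cycle, was low in these tags, at 11.9 and 9.07 CPM, though higher than in 5 of the 6 tissues. The member that did not pass was the D-amino acid oxidase Dao, at 0 in both liver libraries and at 21 and 22 CPM in spinal cord. Prodh2, of hydroxyproline breakdown, stood at 159 and 124 CPM and at 0 in all 12 others, at least 1462-fold higher.

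Genes of glucose, glycogen and fructose metabolism divided by isoform: 20 of 30 were called higher and 5 lower, against 18.5% and 10.1% of all genes, with a median log2 fold of 3.61. Higher were enzymes that make glucose, Pck1 at 1838 and 2836 CPM and Fbp1 at 739 and 668 CPM. Both were above all 12 others, whose highest levels were 52.9 and 1.47 CPM. The glucose transporter Slc2a2 stood at 148 and 83.8 CPM against at most 0.843 CPM. The 5 called lower were forms of glycolytic enzymes that tissues other than liver use. Hk1, Aldoc, Gys1 and Slc2a1 were not called, and Hk1 and Aldoc had a tissue at 0. Aldoa stood at 72.9 and 62.6 CPM in liver against 7.92, 233 and 981 CPM (log2 fold -1.61 ± 0.37, adjusted p = 0.00213). The pyruvate kinase cluster Pkm/Tmem202, whose name the files share with a neighbouring gene, stood at 9.92 and 10.3 CPM against a median of 179 CPM (log2 fold -3.56 ± 0.52, adjusted p = 1.92e-05). The liver form Pklr stood at 50.6 and 45.7 CPM and was higher than in all tissues except bone marrow, at 34.1 and 34.8 CPM. Hexokinase Hk2 (log2 fold -2.96 ± 0.60, adjusted p = 0.000742) and the phosphofructokinases Pfkp (-2.87 ± 0.45, adjusted p = 5.31e-05) and Pfkm (-1.86 ± 0.35, adjusted p = 0.000356) were lower as well. The count of 5 lower became 8 without the pancreas libraries and 3 without the male liver library.

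Bile acid synthesis and the transporters of the hepatocyte surface gave 27 of 27 tested genes higher, 25 of them above each tissue, with a median log2 fold of 8.98 (7.01 with the floor). The bile acid uptake carriers Slc10a1 and Slco1b2 had higher female than male levels. Slc10a1 stood at 962 and 286 CPM and Slco1b2 at 1195 and 356 CPM, and neither passed 1 CPM in another library. Slc27a5, which activates bile acids for conjugation, stood at 1539.8 and 878 CPM. Cyp7a1, the rate-limiting enzyme of bile acid synthesis, was low at 16.9 and 9.98 CPM and at 0 in all 12 others, at least 139-fold higher.

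Iron, heme and vitamin genes gave 20 of 24 tested members higher and 1 lower, with a median log2 fold of 7.16 (5.15 with the floor). The retinol carrier Rbp4 stood at 3203 and 3084 CPM (log2 fold 9.79 ± 0.30, adjusted p = 1.89e-14). Haptoglobin, Hp, which binds free hemoglobin, stood at 2583 and 1726 CPM in liver and 377 and 406 CPM in bone marrow (log2 fold 8.05 ± 0.30, adjusted p = 1.2e-13). The receptors of transferrin went opposite ways. Tfr2, which senses iron, stood at 283 and 226 CPM against at most 33 CPM elsewhere, whereas Tfrc, which takes iron up, stood at 22.3 and 23.6 CPM against 551 and 491 CPM in bone marrow (log2 fold -1.44 ± 0.30, adjusted p = 0.000891). Ferritin heavy chain, Fth1, was called higher by the scaled fold (1.12 ± 0.28, adjusted p = 0.0039) although its liver levels of 2194 and 2007 CPM lay under the 7905 and 6687 CPM of spinal cord.

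Transcription factors known from liver were present at moderate levels. Of 26 tested, 24 were called higher and 12 above each tissue, with a median log2 fold of 4.70 (3.72 with the floor). Cebpb, which switches on acute phase genes, stood at 207 and 363 CPM against at most 53.7 CPM elsewhere (log2 fold 3.88 ± 0.25, adjusted p = 2.5e-10). Cebpa stood at 179 and 112 CPM (log2 fold 4.003 ± 0.30, adjusted p = 2.43e-09). Nr1i3, the drug-sensing receptor CAR, stood at 428 CPM in the female and 134 CPM in the male library, both above the 13.9 CPM of female hippocampus (log2 fold 6.18 ± 0.28, adjusted p = 1.34e-12). Creb3l3, a fasting factor of the endoplasmic reticulum, stood at 95.3 and 69.8 CPM and at 0 in 9 of the 12. The master regulator Hnf4a, shared with gut and other epithelia, stood at 58.6 and 64.1 CPM against up to 23.9 CPM in male stomach.

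The promoters of genes above each of the 6 tissues were searched for exact matches of a motif of HNF4 on both strands, and of the TATA box on the sense strand, 250 bases before to 50 after the start (RefSeq, build GRCm38.p6). The HNF4 motif CAAAGTCCA was found in 12 of 622 such promoters (1.93%) and in 0.477% of all 27025 promoters. Its share was 0.449% among tested genes, and it was found in 1 of 66 promoters of the 100 most abundant such genes. The HNF1 motif was found in 4 of the 622 (0.643%) and in 0.0629% of all promoters. The TATA box letters TATAAA were found in 9.003% of those promoters, 8.88% of all promoters and 5.54% of those of tested genes. A match is a string of letters and shows no binding, and the counts are small.

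Hepatocytes differ along the lobule, from the portal vein to the central vein. Of the pericentral list 15 of 17 tested genes were called higher, and of the periportal list 17 of 18. The pericentral genes summed to 22062 CPM in female and 9275 CPM in male liver, and the periportal genes to 10694 and 9133 CPM. Cyp2e1 made up most of the pericentral sum in both libraries. By CPM without TMM scaling, 6 of 17 pericentral and 5 of 18 periportal genes were at least 2-fold higher in the female than in the male library. In the male, 0 of either list were. Of all 3694 tested genes with a mean liver level of at least 20 CPM, 363 were so in the female and 42 in the male. With TMM scaling these counts were 115 and 110. Glutamine synthetase, Glul, of the cells next to the central vein, stood at 361 and 235 CPM, and spinal cord was near it at 347 and 323 CPM (log2 fold 1.25 ± 0.26, adjusted p = 0.000826). The Wnt targets Axin2, at 10.4 and 1.81 CPM, and Lgr5, at 7.44 and 3.93 CPM, did not pass. Periportal Ass1, of the urea cycle, was even between the libraries at 1533 and 1395 CPM, as was Cyp2f2 at 924 and 922 CPM.

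Markers of the other cells of the liver were present at lower levels. In such tissue samples, fewer cells of a type and less RNA per cell cannot be told apart. Of 10 tested Kupffer cell and macrophage markers 6 were called higher, against 18.5% of all genes, and 2 lay above each tissue. Their median log2 fold was 1.63. Clec4f, a lectin of Kupffer cells, stood at 162 and 83.2 CPM, with counts in only 1 other library at 0.366 CPM. Vsig4, a complement receptor of the same cells, stood at 44.7 and 29 CPM. Cd5l stood at 81.4 and 48.4 CPM and overlapped bone marrow at 57.5 and 63.1 CPM, while C1qa, common to macrophages, did not pass (log2 fold 0.07 ± 0.29, adjusted p = 1). Of 11 endothelial markers 10 were called higher, against 18.5% of all genes, but only 3 lay above each tissue. Their median log2 fold was 2.82. Clec4g of the sinusoids stood at 53.6 and 37.8 CPM against at most 2.2 CPM, and Dnase1l3 at 32.8 and 32.4 CPM against at most 6.6 CPM. Stab2 stood at 34.2 and 29.3 CPM and as high in bone marrow, at 30.8 and 29.3 CPM. Pecam1, common to all endothelium, did not pass, at 9.92 and 4.54 CPM (log2 fold -0.18 ± 0.38, adjusted p = 0.915).

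Stellate cell and fibroblast markers were mixed, with 5 of 10 higher and 1 lower, against 18.5% and 10.1% of all genes. The proteoglycan Dcn stood at 246 and 151 CPM and overlapped stomach at 129 and 221 CPM (log2 fold 2.09 ± 0.24, adjusted p = 9.95e-07). Reln stood at 55.1 and 25.1 CPM, with spinal cord at 52.7 and 47.3 CPM, and Colec11 at 32.3 and 21.8 CPM with at most 0.791 CPM elsewhere. Col1a1, the fibre-forming collagen, was lower, at 13.4 and 6.95 CPM against a median of 49.1 CPM (log2 fold -1.90 ± 0.41, adjusted p = 0.00131). Of 8 bile duct markers 4 were called lower and 1 higher, against 10.1% and 18.5% of all genes. Fewer were lower without either liver library, and 1 marker lay above all 12 others. Krt7 stood at 0.496 and 0.605 CPM (log2 fold -6.40 ± 0.58, adjusted p = 3.93e-08), Sox9 at 3.47 and 0.907 CPM and Epcam at 1.98 and 1.81 CPM. Markers of blood cells were scarce. T and NK cell markers summed to 10.9 and 3.63 CPM, B cell markers to 2.48 and 1.81 CPM and neutrophil markers to 3.47 and 0.302 CPM, against sums of up to 101, 869 and 25150 CPM in bone marrow. No marker of these 3 lists was called higher. The globins Hba-a1 and Hbb-b1 were not called, with Hbb-b1 at 548 and 587 CPM against a median of 495 CPM. Alas2, of heme synthesis in red cells, was called higher, at 7.94 and 67.4 CPM against 1643 and 1977 CPM in bone marrow, and its fold turned to -2.58 in the fit of liver against the 12 others as 1 group. A gut marker, the fatty acid binding protein Fabp2, was higher in liver, at 183 and 142 CPM against 111 and 46.8 CPM in stomach.

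The genes named next were among the most abundant of those that lay below all 12 others in both liver libraries. Cd24a, a surface protein of immature blood and epithelial cells, stood at 0.992 and 2.12 CPM in liver against 12.7, 243 and 2416 CPM (log2 fold -6.69 ± 0.52, adjusted p = 3.94e-09). Krt19, a keratin of ducts, stood at 0.992 and 1.51 CPM against 3.39, 17.4 and 3134 CPM (log2 fold -4.54 ± 0.57, adjusted p = 3.49e-06). The calcium-binding S100a6 stood at 5.46 and 1.51 CPM against at least 13.4 CPM in every other library (log2 fold -5.13 ± 0.51, adjusted p = 1.33e-07). Cysteine and glycine-rich protein 1 (UniGene cluster Mm.196484), an actin-associated protein, stood at 26.8 and 16.6 CPM and elsewhere at 38.8, 504 and 3845 CPM. The tetraspanin Tspan3 stood at 5.46 and 6.05 CPM against at least 8.67 CPM (log2 fold -4.32 ± 0.53, adjusted p = 2.44e-06). The sorting receptor Sorl1 stood at 0.992 and 0.302 CPM against a median of 109 CPM, and the amyloid precursor relative Aplp1 at 0.496 and 0.302 CPM against a median of 11.5 CPM. Scn4b, a sodium channel subunit, was at 0 in both liver libraries and present in all 12 others, at 1.13 to 657 CPM. Glutaminase (Mm.244215), of which liver uses a form of its own, stood at 1.98 and 1.51 CPM against 703 and 753 CPM in hippocampus. An immunoglobulin heavy chain cluster (Mm.342177) stood at 4.47 and 6.95 CPM, under the lowest other library at 7.8 CPM.

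The cytoskeleton was lower in most of its members that passed: 12 of 27 tested genes were called lower and 2, the keratins Krt8 and Krt18, higher. The median log2 fold was -1.23, and over all genes 10.1% were lower and 18.5% higher. Krt8 stood at 196 and 237 CPM and Krt18, its partner in simple epithelia, at 158 and 164 CPM, and both were higher still in stomach. Actin-binding Tmsb4x stood at 184 and 150.0 CPM against 40.4, 1448 and 4128 CPM (log2 fold -2.37 ± 0.42, adjusted p = 0.000176). Smooth muscle actin, Acta2, stood at 8.93 and 5.44 CPM against 2055 and 3491 CPM in stomach (log2 fold -2.65 ± 0.38, adjusted p = 1.55e-05), and tropomyosin, Tpm1, was lower than in each tissue (log2 fold -2.60 ± 0.34, adjusted p = 4.93e-06).

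Collagen and matrix genes gave 11 of 24 lower and 4 higher, against 10.1% and 18.5% of all genes. The median log2 fold was -1.39, and fewer of them were lower without either liver library. Higher were fibronectin, Fn1, which the liver also secretes into plasma, at 792 and 462 CPM (log2 fold 4.04 ± 0.23, adjusted p = 3.08e-11), and Col18a1, the source of endostatin, at 389.5 and 262 CPM (log2 fold 6.52 ± 0.29, adjusted p = 1.18e-12). Sparc stood at 50.6 and 46.6 CPM against a median of 143 CPM (log2 fold -1.63 ± 0.34, adjusted p = 0.000967), and Mgp, an inhibitor of calcification, at 3.47 and 2.42 CPM (log2 fold -3.20 ± 0.51, adjusted p = 5.63e-05).

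Over all genes 10.1% were called lower and 18.5% higher. Of 23 tested cell cycle genes 7 were called lower and 0 higher, with a median log2 fold of -1.41. That count moved with the fit: it was 2 without the female and 4 without the male liver library, 13 with DESeq2 or limma voom, 15 without the pancreas libraries and 12 without the stomach libraries. Mki67, present in dividing cells, stood at 0.992 and 0.605 CPM against 444 and 461 CPM in bone marrow (log2 fold -3.26 ± 0.66, adjusted p = 0.000749). The cyclin Ccnd2 stood at 8.93 and 4.84 CPM against a median of 37 CPM (log2 fold -2.13 ± 0.37, adjusted p = 0.000144). Pcna, the clamp of DNA replication, did not reach 2-fold (log2 fold -0.98 ± 0.32, adjusted p = 0.0226).

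Genes of machinery common to all cells divided by complex. Of 66 tested cytosolic ribosomal proteins 0 were called higher and 1, Rpl27, lower, with a median log2 fold of -0.31 beside -0.16 for all genes. Of 30 proteasome subunits 14 were called higher, fewer without the male liver library, with a median log2 fold of 0.96. Of 71 nuclear-encoded respiratory chain subunits 31 were higher, against 18.5% of all genes, with a median of 0.95. In each of these 2 lists 1 gene lay above each tissue. The proteasome list summed to 2475 and 2441 CPM in liver and up to 3526 CPM in female spinal cord. The respiratory chain list summed to 20113 and 16541 CPM in liver and up to 24694 CPM in male spinal cord. Psma3 stood at 163 and 175 CPM (log2 fold 1.61 ± 0.27, adjusted p = 0.000122), and the complex III subunit Uqcrq at 753 and 593 CPM (log2 fold 1.93 ± 0.24, adjusted p = 3.36e-06). Of 10 mitochondrially encoded genes 5 were called higher, against 18.5% of all genes, and fewer without the male liver library. The NADH dehydrogenase subunit mt-Nd2 stood at 6597 and 8070.1 CPM and above all 12 others, whose highest was 6364 CPM (log2 fold 2.36 ± 0.34, adjusted p = 1.84e-05). The oxidase subunit mt-Co1 was called higher (1.47 ± 0.40, adjusted p = 0.00839) at 38128 and 27785 CPM, inside the range set by hippocampus at 44234 and 35684 CPM.

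The female and male liver libraries differed from each other in genes known for sexual dimorphism, among others. With 1 library per sex, this difference has no replicate check in liver, and it may be one of lobe. TMM factors were 1.18 for the female and 0.903 for the male library, so ratios below are of TMM-scaled levels unless unscaled CPM are named. Of 3694 tested genes with a mean liver level of at least 20 CPM, 110 were at least 2-fold higher in male and 115 in female liver. By unscaled CPM these counts were 42 and 363. The male-biased list summed to 2647 CPM in female and 28254 CPM in male liver. By unscaled CPM, 11 of its 13 tested members were at least 2-fold higher in the male. The female-biased list summed to 3705 and 29.0 CPM. Of its 20 members found only 8 were tested, each at least 2-fold higher in the female by unscaled CPM.

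Among the male-biased genes Mup20 had a ratio of 57.1. Cyp4a12b/Cyp4a12a, a fatty acid and arachidonic acid hydroxylase pair, stood at 0.992 CPM in female and 509 CPM in male liver and at 0 in all 12 others. Elovl3, a fatty acid elongase, stood at 3.97 and 274 CPM, Cyp7b1, an oxysterol hydroxylase, at 38.7 and 429 CPM and the glutathione transferase Gstp1 at 784 and 6429 CPM. Gstp1 in female liver lay within the range of the 12 others, which reached 839 CPM, and in male liver far above it. The complement component C6 stood at 20.3 and 292 CPM and the Nudix hydrolase Nudt7 at 112 and 345 CPM.

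Among the female-biased genes, the P450 genes Cyp3a41a and Cyp2b9/Cyp2b13 stood at 654 and 724 CPM in female and at 0.302 and 0.605 CPM in male liver. The sulfotransferase Sult2a2 stood at 454 CPM in the female library and 0 in the male. These 3 did not pass the filter on low counts, which needs a minimum level in 2 libraries, and were not tested. Cyp17a1, of androgen synthesis, stood at 228 and 7.26 CPM. Hamp2, a relative of the iron hormone hepcidin, stood at 906 CPM in female and 9.68 CPM in male liver, and stomach went the other way, at 29.9 and 93.6 CPM.

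The tags of Cyp3a11, which was even between the sexes, and Cyp3a41a, which was present almost only in the female, are shown because they differ at few bases and could be confused. So are both main tags of the Cyp2d9 cluster, which behaved differently.
Cyp3a11: GATCtttcgatagtaaccac
Cyp3a41a: GATCttttgatagtaaccaa
Cyp2d9, tag shared by the sexes: GATCatgcctgggtgagccc
Cyp2d9, tag of male liver: GATCatgcctgggggaggcc
Hamp2: GATCccaatgcagaagagaa

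From the Cyp3a11 to the Cyp3a41a tag the changes are C8T and C20A. The Cyp3a41a tag stood at 623 CPM in female and 0.302 CPM in male liver, and the Cyp3a11 tag at 3942 and 3579 CPM. From the first to the second Cyp2d9 tag the changes are T14G and C18G. The first Cyp2d9 tag was counted 2044 times in female and 2594 times in male liver, and the second 111 and 4128 times. The male excess of the cluster, 1074 against 2061 CPM, thus lay in its second tag, and whether that tag belongs to Cyp2d9 or to a near copy was not tested.

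**Figure D3:**
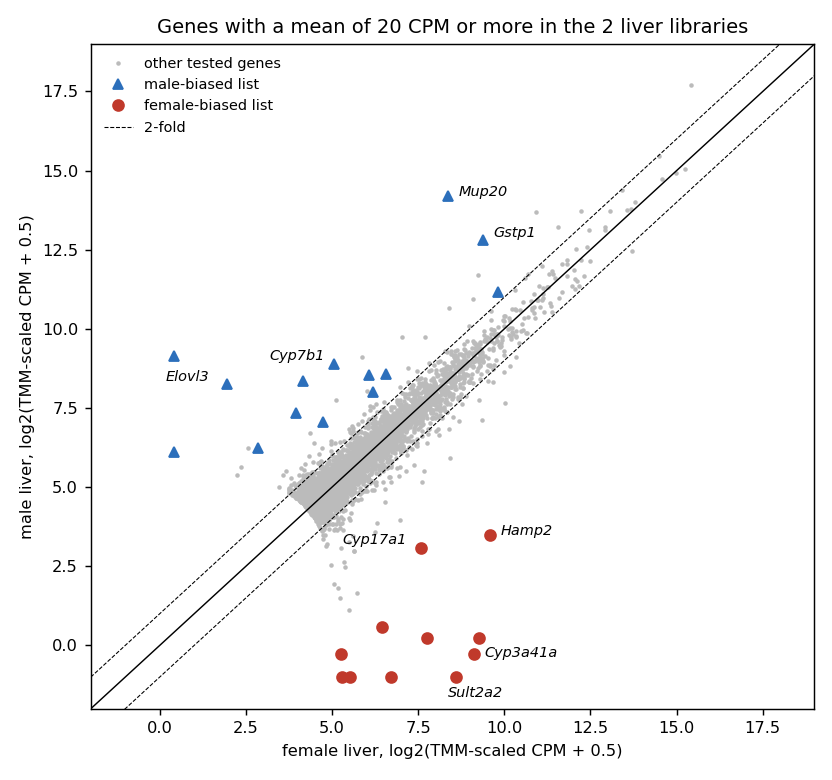
TMM-scaled level in female liver against that in male liver for genes with a mean of at least 20 CPM, both axes logarithmic, with the dashed lines at 2-fold and the male-biased and female-biased lists marked. Most genes lie between the lines, and the marked genes lie on either side of them.

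The test of whether the liver fold differs between the sexes called 1 of 14682 genes, 0.00681%: Hamp2 (log2 difference -7.02, adjusted p = 0.0446), and 346 genes, 2.36% of those tested, had an unadjusted p under 0.05. That test takes the spread between the sexes in the other 6 tissues as its error, and the stomach pair is the widest of them. Without both stomach libraries 52 of 14297 genes (0.364%) were higher in male liver relative to the other tissues and 80 (0.56%) in female liver. Then 6 of 13 tested male-biased genes passed, Cyp7b1 (log2 difference 4.16 ± 0.38, adjusted p = 3.08e-24), Gstp1 (3.36 ± 0.34, adjusted p = 2.67e-19), Elovl3, Nudt7, C6 and Alas2. Of 8 tested female-biased genes 3 passed, Hamp2 (-6.41 ± 0.48, adjusted p = 9.25e-37), Atp6v0d2 (-6.21 ± 0.90, adjusted p = 5.54e-09) and Xist. DESeq2 on all 14 libraries did not call Hamp2 (adjusted p = 0.9999).

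**Figure D4:**
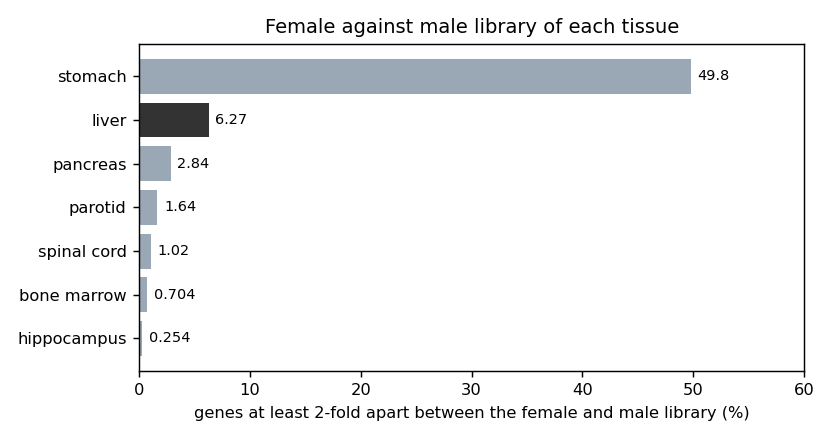
Percent of genes that differed by at least 2-fold between the female and male library of a tissue, over genes with a mean of at least 20 CPM and counts in both, as bars from 0. Stomach stands at 49.8%, liver at 6.27% and the other 5 tissues at 2.84% or less.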

How the data were processed

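Tags were measured in 14 libraries, 1 female and 1 male for each of 7 tissues. Per the labels' protocols, mRNA was reverse transcribed, cut with DpnII and captured as 20-base tags. The deposited values are raw counts per distinct tag, which the authors assigned to UniGene clusters and mitochondrial genes. The sources used here do not give the aligner, the UniGene build or the legend of the class codes. Reading codes 1 to 4 as the sense strand is an assumption.

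Counts of codes 1 to 4 were summed per cluster, which gave 22221 genes. Symbols come from the accession (12005 genes) or the title (1955), and for 91 genes the 2 differed. Another 13 are mitochondrial, and 8157, which hold 12.4% of gene counts, have no symbol and are known by title, if any, or cluster id. CPM are counts per 1e6 gene counts of a library. Tests used edgeR 4.0.16 in R 4.3.3: TMM scaling, filterByExpr by tissue (14682 genes), terms for tissue and sex, 6 residual degrees of freedom, and liver against the equally weighted mean of the other 6 tissues. A liver by sex term was added in a further fit with 5 residual degrees of freedom, in which the liver pair is assumed to vary like the other pairs. A gene was called at 2-fold or more with an adjusted p (Benjamini-Hochberg) under 0.05. Nothing says that the libraries of a tissue came from separate animals of 1 group beyond their sex, so p-values measure the spread between these libraries. Alternatives used DESeq2 1.42.0, limma 3.58.1, other scalings, other filters and libraries left out. On simulated counts of 12841 genes the liver contrast recovered 17.9% of 2-fold, 83.6% of 4-fold and 98.5% of 8-fold changes. The liver by sex term recovered 0%, 11.9% and 39.4%. Apart from the set changes, each simulated gene had the same level in every tissue, and changes were set only on genes above a minimum mean level. These shares therefore do not give the recovery for genes that differ among the other tissues or lack counts in a tissue. Tables were made with Python 3.11.15, pandas 2.3.3 and numpy 2.4.6, and figures with matplotlib 3.10.9.

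The genes and the 40 lists were chosen with earlier results of these data known. Named genes are the markers, the 10 most abundant genes above all 12 others, the 10 most abundant below them, the 10 largest folds, up to 10 genes at 0 in all others, up to 6 members per list by liver level and 3 called lower, genes called for the liver by sex term, and the 6 most abundant genes called higher that are higher in another tissue. Plg, Pros1, C4b, Cfp, C6, Pltp, Cyp4f18, Gsto1, Fabp1, Fasn, Acly, Srebf2, Dgat1, Hpd, Arg1, Dao, Slc2a2, Aldoa, Hk2, Pklr, Cyp7a1, Tfr2, Hnf4a, Glul, Axin2, Lgr5, Pecam1, Elovl3, Atp6v0d2, Xist, Bcat2 and Ralgapa1 were chosen after their values were seen. Some genes are not reported here.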

Additional observations from a re-analysis of the deposited data

Results flagged for a closer look

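Hamp2 was the gene whose liver fold differed between the sexes, by -7.02 on the log2 scale in male relative to female (edgeR adjusted p = 0.0446). It stood at 906 CPM in female and 9.68 CPM in male liver, and at 29.9 and 93.6 CPM in female and male stomach. Liver has 1 library per sex, so this has no replicate check.

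A tag without any assignment was the most abundant such tag next to a liver gene. It differs by C20T, in capitals besides the DpnII site, from the tag of Serpina1a, for which parent and variant are shown.
Serpina1a: GATCccacacataaatgacc
Unassigned: GATCccacacataaatgacT
The variant stood at 1543 CPM of all counts in female and 7054 CPM in male liver, and reached at most 2.55 CPM in the other libraries. It amounted to 7.21% of the Serpina1a tag in female and 20.2% in male liver. For the 20 most abundant liver tags, all unassigned variants at 1 base together amounted to a median of 4.82% of the parent in female and 1.90% in male liver, and the female share was the higher in 19 of the 20. The origin of the variant was not tested.

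A tag that the authors gave a reverse-strand code in the Hbb-b1 cluster stood at 1534 CPM in female and 840 CPM in male liver, and at no more than 0.637 CPM in the 12 others, bone marrow included. Its sequence is GATCagcaggcatggtgtca. The sense tags of that cluster had a mean of 567 CPM in liver. The origin of the tag was not tested.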

How the results depend on the processing

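The counts of 2709 higher, 1480 lower and 916 above each tissue stayed within 1.5 times of these values under other scalings, without the filter, with 1 tag per gene, without tags with a run of 10 A and without the sex term. The first 2 did so without the stomach or the pancreas libraries too, which was not run for the third. A fit of liver against all 12 others as 1 group called 863 higher and 78 lower, since differences between the other tissues then count as error. Called lower were 4181 genes with limma voom and 2337 with DESeq2, of which 2521 and 648 had a tissue at 0, where edgeR's contrast calls none lower. Leaving out 1 library gave 2112 to 3096 higher, 713 to 1844 lower and 695 to 1086 above each tissue, and the lower calls fell most without a liver library. The liver by sex term, 1 gene, became 5 with limma voom, 15 with DESeq2, 28 without the filter, 2 with 1 tag per gene, 132 without both stomach libraries and 107 without them and the filter. Leaving out 1 library gave 0 to 129, with 0 without any bone marrow, pancreas or parotid library, and 127 and 129 without the female and male stomach library. The tags without a run of A and the fits without the stomach pair for the sex term were chosen after seeing the data. Of 5890 values for 236 results on named genes, 5655 stayed on their side of the threshold, and 136 lost and 93 gained a call. A change of sign was counted only where either fit made a call, and 6 values turned in this way: Alas2 (-2.58), Tff1 (-4.86) and Krt8 (-0.61) in the fit with 1 group, Tff1 with 1 tag per gene (-2.24), Cela1 without pancreas (0.076) and Atp4a with limma voom (-1.86, adjusted p = 0.0122). The cause was not tested. Over all called genes the sign turned for 90 in the fit with 1 group, 15 with 1 tag per gene, 1 without the pancreas libraries, 5 without the female and 3 without the male liver library. The median log2 fold over all genes, -0.16, became -0.26 with RLE size factors, -0.27 with limma voom, -0.33 with DESeq2 and -0.36 without the filter. Across these settings 0 to 7 ribosomal protein genes were called lower. The female and male libraries carry no replicate numbers in the labels. Without the sex term 2710 genes were higher and 1471 lower. No paired analysis was possible because no labels tie libraries to the same animals. At 3 counts the 2 liver libraries together cannot show levels under 0.564 CPM and the 12 others levels under 0.0967 CPM.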

Other observations

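Some genes used another tag in liver than elsewhere. Of 2446 genes with at least 2 tags and at least 50 counts in each liver library and 30 in at least 6 others, the liver share of 1 tag lay above that of every other library with 30 counts in 85, and by at least 50 points in 3, Alb, Ralgapa1 and Bcat2. The tag was chosen as that with the largest mean share in liver, and no like count was made for another tissue. The 85 can therefore not be read as particular to liver. Ralgapa1 encodes a subunit of a GTPase-activating complex, and Bcat2 the mitochondrial aminotransferase of branched-chain amino acids. The liver tag of each is shown beside the main tag of the other tissues.
Ralgapa1, liver: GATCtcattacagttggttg
Ralgapa1, others: GATCagcagtagtgttaact
Bcat2, liver: GATCacagactctcaagctc
Bcat2, others: GATCcccggtgctcttcgtg
The liver tag of Ralgapa1 made up 87.5% of its counts in female and 88.2% in male liver, and at most 6.67% in the 7 other libraries with at least 30 counts of the gene. That of Bcat2 made up 64.5% and 77.8% in liver and was at 0 in all 12 others, while the other Bcat2 tag stood at 25.8 and 9.68 CPM in liver against up to 199 CPM. Bcat2 as a whole was not called (log2 fold 0.99). Whether these tags mark another 3′ end or another transcript was not tested.

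Tags outside the gene counts also set liver apart. Of those in both liver libraries above all others and with a mean liver level of at least 20 CPM, 185 had a reverse-strand code, 105 had no assignment and 27 a genome position only. On the reverse strand they included tags in the clusters of Apoa1, at 1003 and 925 CPM of all counts, Mup3, at 271 and 927 CPM, and Alb, at 640.3 and 305 CPM. Counts without assignment took 7.92% of the female and 4.57% of the male liver library.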
